A study of Homo sapiens with 30 samples.

Results

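The BCL2 family was followed in prostate cancer cells given enzalutamide, the androgen dihydrotestosterone (DHT), the BET bromodomain inhibitor JQ1, or combinations of these. The 10 genes described were chosen by name from the 23710 genes of the count table. They were BCL2, BCL2L1 (BCL-XL), MCL1, BAX, BAK1, BCL2L11 (BIM), BBC3 (PUMA), PMAIP1 (NOXA), BIK and BMF, and all 10 were found both in the counts and among the deposited transcripts. The rule used gene names only, but the members were chosen with earlier results of these data known.

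The family governs the mitochondrial route of apoptosis. BCL2, BCL2L1 and MCL1 encode guardians that keep the outer mitochondrial membrane intact by holding the effectors BAX and BAK1 in check, whereas BAX and BAK1 open pores in it and release cytochrome c to the caspases. The BH3-only proteins BCL2L11, BBC3, PMAIP1, BIK and BMF tip this balance by binding the guardians, PMAIP1 mainly MCL1, and in some cases by activating the effectors directly. In prostate epithelium androgen is a survival signal, and BCL2 and BCL2L1 are studied as routes of resistance to hormonal therapy.

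V16D is a castration-resistant derivative of the LNCaP prostate cancer line, and MR49F is an enzalutamide-resistant line of the same origin. In full serum (FS) both lines received DMSO vehicle or 10 μM enzalutamide, an antiandrogen drug, for 24 h. In charcoal-stripped serum (CSS), which is depleted of steroids, MR49F alone received vehicle (DMSO with ethanol), 10 μM enzalutamide, 1 nM DHT, 500 nM JQ1, enzalutamide with JQ1, or DHT with JQ1, each for 24 h. JQ1 displaces BET bromodomain proteins from acetylated chromatin. Each of the 10 conditions had 3 replicates, 30 samples in all. Each line is a single cell line, MR49F is otherwise kept in enzalutamide and was taken off it before the full-serum experiment, and wells were pooled for each replicate. The study calls the replicates biological but does not say whether they were grown on separate occasions, so the p-values below measure the spread between these samples.

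The share of reads that lay on genes differed between the sera, whereas the totals of uniquely aligned reads overlapped. In FS 13170504 to 21154962 reads per sample lay on genes, and in CSS 982130 to 1813262, which was 5.13% to 7.66% of the uniquely aligned reads against 73.0% to 77.8% in FS. In CSS the genes whose exons overlap a gene on the other strand with at least 10-fold higher FPKM had a median log2 ratio of counts (in CPM) to FPKM of 3.59 (112 genes), against 1.62 in genes with no such partner (10453 genes). In FS the medians were 1.60 (116 genes) and 1.72 (10751 genes). Whether and how strand was used in counting is not given in the sources used here, and how far the CSS counts of a gene hold reads from its partner's strand was not tested. The FPKM (a level per transcript length and sequencing depth, added up here for each gene) do not rest on these gene counts. The levels and changes in CSS are therefore led by FPKM, with the count test beside them. The luminal markers KRT8 and KRT18 were at 114 FPKM or more in every condition, whereas the immune, endothelial, stromal and basal markers PTPRC, CDH5, DCN and KRT5 stayed at or below 0.0601 FPKM. Of the other marker genes the endothelial marker PECAM1 was at 0.550 to 0.644 FPKM in the FS conditions and at or below 0.00383 in CSS, COL1A1 was at 0.679 to 1.65 FPKM, CD68 at 1.51 to 5.93 and the neuroendocrine marker SYP at 0.670 to 9.14 over the condition means, and the part of these in any result was not tested. Replicate 1 of vehicle-treated MR49F in FS stood apart from its group (chi-square per degree of freedom 9.87 and 11.6 against the other 2 samples, which differed by 2.24). KLK3 (PSA), an androgen-responsive gene, fell 3.84-fold with enzalutamide in V16D, was 971 and 941 FPKM without and with it in MR49F in FS, and in CSS rose 2.83-fold with enzalutamide and 4.45-fold with DHT. With JQ1 in CSS KLK3 fell 40.3-fold against vehicle, 17.4-fold on enzalutamide and 7.81-fold on DHT.

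The sequences in front of 4 genes are shown because their transcripts moved most clearly with DHT, enzalutamide or JQ1, BMF and BCL2L1 from 2 RefSeq start sites each. The table of promoter windows held 8 of the 10 members (all but MCL1 and BIK). Each line is the 250 bases before the start, 5′ to 3′ on the gene's strand, from RefSeq (GRCh38.p14), and each was found once, letter for letter, in GRCh37, whose coordinates are given. Capitals mark matches on either strand to 3 motifs, the E-box CACGTG bound by MYC, the forkhead motif GTAAACA and the cyclic AMP response core ACGTCA.
BMF upstream start (chr15:40401081-40401330, minus strand): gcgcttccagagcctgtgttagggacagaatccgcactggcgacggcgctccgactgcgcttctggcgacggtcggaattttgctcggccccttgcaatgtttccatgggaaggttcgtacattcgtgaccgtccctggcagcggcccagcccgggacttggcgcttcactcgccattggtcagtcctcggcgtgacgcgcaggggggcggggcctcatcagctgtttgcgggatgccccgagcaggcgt
BMF downstream start (chr15:40399168-40399417, minus strand): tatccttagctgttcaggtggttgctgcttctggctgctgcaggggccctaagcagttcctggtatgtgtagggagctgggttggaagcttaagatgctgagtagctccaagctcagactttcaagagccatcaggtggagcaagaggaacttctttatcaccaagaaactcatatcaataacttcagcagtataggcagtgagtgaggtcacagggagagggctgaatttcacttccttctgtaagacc
BCL2L1 upstream start (chr20:30311767-30312016, minus strand): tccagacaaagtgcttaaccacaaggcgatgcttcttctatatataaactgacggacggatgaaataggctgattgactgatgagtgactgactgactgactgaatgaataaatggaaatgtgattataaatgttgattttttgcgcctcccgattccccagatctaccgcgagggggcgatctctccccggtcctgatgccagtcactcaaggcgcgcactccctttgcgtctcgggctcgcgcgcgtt
BCL2L1 downstream start (chr20:30310672-30310921, minus strand): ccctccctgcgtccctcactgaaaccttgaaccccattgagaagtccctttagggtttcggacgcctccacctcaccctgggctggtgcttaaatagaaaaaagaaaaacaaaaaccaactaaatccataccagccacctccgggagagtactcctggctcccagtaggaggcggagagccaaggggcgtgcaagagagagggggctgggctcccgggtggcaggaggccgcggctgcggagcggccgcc
BCL2L11 (chr2:111878241-111878490, plus strand): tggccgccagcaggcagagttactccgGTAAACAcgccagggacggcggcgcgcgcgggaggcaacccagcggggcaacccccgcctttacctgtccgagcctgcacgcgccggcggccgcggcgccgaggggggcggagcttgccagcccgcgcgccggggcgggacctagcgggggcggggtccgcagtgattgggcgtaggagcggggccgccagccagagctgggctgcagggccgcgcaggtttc
PMAIP1 (chr18:57566978-57567227, plus strand): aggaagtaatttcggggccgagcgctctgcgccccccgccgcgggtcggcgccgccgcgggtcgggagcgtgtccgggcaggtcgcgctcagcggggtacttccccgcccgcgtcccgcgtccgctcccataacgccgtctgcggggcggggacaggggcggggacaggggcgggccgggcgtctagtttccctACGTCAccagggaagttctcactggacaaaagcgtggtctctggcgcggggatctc
Of all 35116 windows, 6.34% held CACGTG, 2.98% GTAAACA and 7.10% ACGTCA. The BCL2L11 window held GTAAACA and the PMAIP1 window ACGTCA, whereas the windows of BMF and BCL2L1 held none of the 3 motifs. E-boxes lay in front of BAX, at 4 places, and BBC3. These matches describe the letters only, and windows without a match say nothing of the factors.

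Per length, the guardians MCL1 and BCL2L1 were the most abundant members. Over the 10 condition means, MCL1 ranged from 34.1 to 54.1 FPKM and BCL2L1 from 23.3 to 62.0, followed by BAX from 18.3 to 26.2. BCL2L11, BAK1, PMAIP1, BIK and BMF had medians between 2.59 and 8.56 FPKM, and BBC3 and BCL2 were lowest, with medians of 1.97 and 1.37. BMF moved over the widest range, 8.07-fold between its lowest and highest condition, followed by BCL2 (4.76-fold), PMAIP1 (3.06-fold), BIK (2.99-fold) and BCL2L1 (2.66-fold). BAX moved least, 1.43-fold. In bulk RNA, fewer cells with a transcript and less of it per cell cannot be told apart, and levels in the 2 sera are set side by side and were not tested against each other.

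**Figure D1:**
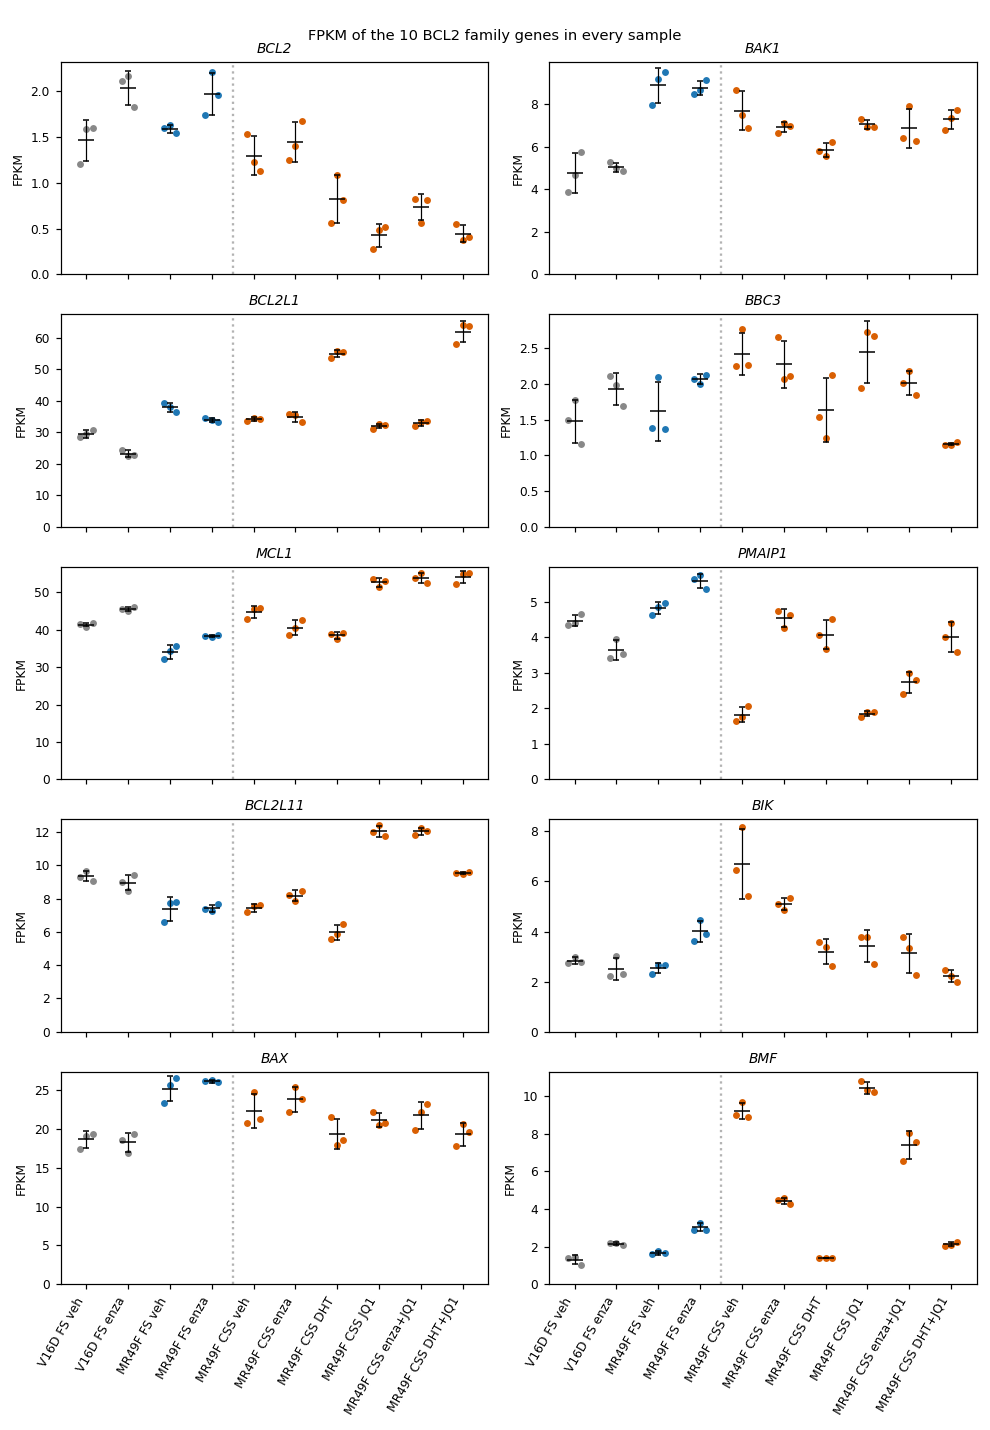
FPKM (y axis, linear, from 0) of each of the 10 genes in every sample (points, 3 per condition) with the mean and SD (bars), for V16D in full serum (grey), MR49F in full serum (blue) and MR49F in charcoal-stripped serum (orange). The guardians BCL2L1 and MCL1 sit far above BCL2, and BMF spreads from 1.30 to 10.5 FPKM over the condition means.

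The number of members that changed was set against the share of all tested genes that did, with calls at an adjusted p of at most 0.05. Differences on FPKM are on the log2(FPKM + 1) scale, which understates the change of low genes, and fold values are ratios of mean FPKM. Enzalutamide in V16D changed 6 of 10 members on counts (edgeR; 37.5% of all genes tested) and 5 of 10 on FPKM (limma on log2(FPKM + 1); 29.7%). In MR49F in FS it changed 3 of 10 on counts (8.48% of all genes) and 2 of 10 on FPKM (4.53%). Untreated MR49F differed from V16D in 6 members on counts (63.7%) and 5 on FPKM (62.7%). The response to enzalutamide itself differed between the lines for 2 members on both measures (interaction; 6.95% on counts and 6.04% on FPKM).

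In CSS the count test, with its filter on low counts, held 6 or 7 members. BCL2, PMAIP1 and BIK had between 0 and 12 reads in any sample, too few to pass the filter, and BBC3 passed it in a part of the comparisons. On counts, 0 of 6 members were called with enzalutamide (edgeR; 0 at an unadjusted p under 0.05, 0 with DESeq2; 7.26% of all genes), 2 with DHT (37.5%), 2 between DHT and enzalutamide (19.4%), 2 with JQ1 (46.6%), 2 with JQ1 added to enzalutamide (45.1%) and 3 with JQ1 added to DHT (54.7%). On FPKM, 2 of 10 were called with enzalutamide (38.4% of all genes), 9 with DHT (71.6%), 8 between DHT and enzalutamide (56.7%), 5 with JQ1 (74.7%), 6 with JQ1 added to enzalutamide (75.4%) and 7 of 9 with JQ1 added to DHT (78.8%). A large part of all genes was called in most of these comparisons, so the number of members called says little by itself. On FPKM the share of members called was below that of all genes with enzalutamide and in the JQ1 comparisons. It was above that share with DHT and between DHT and enzalutamide. Whether these shares differ was not tested. With DHT 7 of the 9 called members fell, as did 5237 of the 8725 genes called in the whole table, and the median of the 10 was -0.31 on the log2(FPKM + 1) scale against -0.08 over all genes tested. DHT and enzalutamide were each compared with the same 3 vehicle samples. Set against enzalutamide directly, DHT gave lower BCL2 (log2 difference -0.43, limma adjusted p = 0.00808), BCL2L11 (-0.40, adjusted p = 0.000548), BAK1 (-0.21, adjusted p = 0.00829) and BIK (-0.55, adjusted p = 0.000714) on FPKM. It also gave lower BBC3 (-0.32, adjusted p = 0.0455, limma), a call lost in 5 of the 6 fits that left out a sample (all but DHT replicate 3; adjusted p up to 0.135). MCL1 did not pass there (-0.07, adjusted p = 0.246, limma). The counts called neither BCL2L11 (-0.37, adjusted p = 0.281, edgeR) nor BAK1 (-0.33, adjusted p = 0.431).

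**Figure D2:**
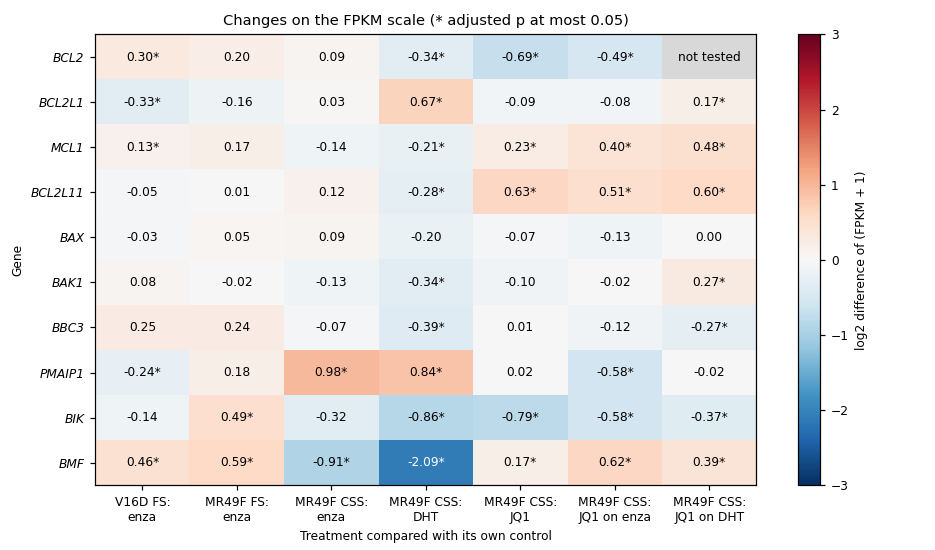
Log2 difference of (FPKM + 1) between a treatment and its own control (colour and number) for the 10 genes (rows) in 7 comparisons (columns), with an asterisk where the limma adjusted p was at most 0.05. BMF is higher with enzalutamide in full serum in both lines and lower with enzalutamide or DHT in charcoal-stripped serum.

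Among the guardians, BCL2L1 (chr20:30252255-30311792, GRCh37, GENCODE 44) fell with enzalutamide in V16D and rose with DHT in CSS. In V16D it was at 28.4, 29.3 and 30.7 FPKM without and 24.4, 22.6 and 22.8 with enzalutamide. The treated samples all lay lower, and BCL2L1 fell on both measures (log2 fold change -0.37, SE 0.04, edgeR adjusted p = 2.6e-21; log2 difference -0.33, SE 0.04, limma adjusted p = 0.00282). In MR49F in FS the values were 39.4, 37.9 and 36.4 without and 34.4, 33.9 and 33.4 with the drug. The samples did not overlap, and the fall passed on counts (-0.20, adjusted p = 0.0422, edgeR) but not on FPKM (-0.16, adjusted p = 0.11, limma), and on counts it was lost without any of the 3 enzalutamide samples or vehicle replicate 2, with adjusted p up to 0.199. Its change with enzalutamide was not shown to differ between the lines (0.16, adjusted p = 0.196, edgeR interaction), but it did without MR49F vehicle replicate 1, the sample that stood apart (0.21, adjusted p = 0.00251). Untreated MR49F had 1.29-fold more BCL2L1 than V16D (log2 difference 0.35, SE 0.05, limma adjusted p = 0.00129).

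In CSS, DHT raised BCL2L1 from 33.6, 34.7 and 34.4 to 53.6, 55.8 and 55.4 FPKM. Every DHT sample was above every vehicle sample, a 1.61-fold difference that passed on FPKM (log2 difference 0.67, SE 0.04, limma adjusted p = 2.4e-06) and on counts (log2 fold change 0.61, SE 0.11, edgeR adjusted p = 6.98e-05). With enzalutamide it was at 35.8, 35.7 and 33.2 FPKM. These overlapped the vehicle samples (0.03, adjusted p = 0.698, limma), and DHT differed from enzalutamide on both measures (0.64, adjusted p = 1.17e-05, limma; 0.81, adjusted p = 5.43e-05, edgeR). JQ1 alone left it at 31.2, 32.6 and 32.3 FPKM, below each vehicle sample but not past the threshold (-0.09, adjusted p = 0.0531, limma). With DHT and JQ1 together BCL2L1 reached 58.2, 64.0 and 63.7 FPKM, its highest level in the series, and these samples lay above those with DHT alone (0.17, adjusted p = 0.0144, limma; 0.26, adjusted p = 0.0212, edgeR). Without DHT with JQ1 replicate 2 the FPKM call was lost (adjusted p = 0.054), and on counts without DHT replicate 1 or DHT with JQ1 replicate 3 (up to 0.0717). The effect of JQ1 on BCL2L1 differed with and without DHT (0.26, adjusted p = 0.00345, limma interaction, 47.7% of all genes called; 0.41, adjusted p = 0.0453, edgeR, 12.3%), and on counts this was lost whichever of the 12 samples was left out (adjusted p up to 0.125).

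MCL1 (chr1:150533371-150552214), whose short-lived protein holds BAK1 and binds PMAIP1, rose whenever JQ1 was given. It was at 43.0, 45.6 and 45.8 FPKM with vehicle and 53.6, 51.4 and 53.2 with JQ1 in CSS. All JQ1 samples were higher (log2 difference 0.23, SE 0.04, limma adjusted p = 0.00138; log2 fold change 0.42, SE 0.09, edgeR adjusted p = 0.000226). On top of enzalutamide JQ1 moved it from 38.7, 40.5 and 42.5 to 53.9, 55.3 and 52.5 FPKM, 1.33-fold, and on top of DHT from 38.8, 37.5 and 39.3 to 52.3, 54.9 and 55.1, 1.41-fold. Neither pair of groups overlapped, and both rises passed on FPKM (0.40, adjusted p = 0.000128 and 0.48, adjusted p = 1.75e-05, limma) and on counts (0.53, adjusted p = 0.000482 and 0.54, adjusted p = 2.58e-05, edgeR). DHT alone lowered it on FPKM (-0.21, adjusted p = 0.00297, limma), which the counts did not call (-0.12, adjusted p = 0.445, edgeR), and the effect of JQ1 was larger with DHT on FPKM (0.25, adjusted p = 0.00282, limma interaction) but not past the threshold on counts (0.12, adjusted p = 0.653, edgeR). The 3 groups given JQ1 had means of 52.7, 53.9 and 54.1 FPKM and overlapped each other. The neuroendocrine marker SYP moved with JQ1 in the same samples, from 1.40 to 9.14 FPKM on vehicle, from 1.33 to 8.80 on enzalutamide and from 1.63 to 7.29 on DHT (means of 3 samples), whereas CHGA stayed at or below 0.0858 FPKM. The part of this in the JQ1 results for MCL1 and the other members was not tested.

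In FS the order of the lines was opposite for MCL1 and BCL2L1. MCL1 was at 41.7, 40.9 and 41.7 FPKM in untreated V16D and 32.2, 34.4 and 35.8 in untreated MR49F, lower in every MR49F sample (log2 difference -0.27, SE 0.05, limma adjusted p = 0.00373). With enzalutamide it rose slightly in V16D, to 45.5, 45.1 and 46.0 FPKM (0.13, adjusted p = 0.0127, limma; 0.10, adjusted p = 0.000963, edgeR). In MR49F it was at 38.3, 38.2 and 38.7, also above its controls but short of the threshold (0.17, adjusted p = 0.121, limma; 0.13, adjusted p = 0.0935, edgeR), which the counts passed without vehicle replicate 1 (0.11, adjusted p = 0.0196). MCL1 shares 43 exonic bases with ADAMTSL4 on the other strand, BCL2L1 1735 with ABALON, BCL2L11 727 with MIR4435-2HG and BMF 461 with BMF-AS1, and the part of these partners in the CSS counts was not tested.

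BCL2 (chr18:60790579-60987361), the founding guardian, had the lowest median level of the members. In V16D it went from 1.21, 1.59 and 1.59 to 2.11, 2.17 and 1.82 FPKM with enzalutamide (0.30, adjusted p = 0.0304, limma; 0.29, adjusted p = 0.00289, edgeR). The treated samples were all higher, although the FPKM call was lost without enzalutamide replicate 1 or 2 (adjusted p up to 0.0863). In MR49F in FS the values were 1.60, 1.63 and 1.54 without and 1.74, 2.20 and 1.96 with it, not past the threshold (0.20, adjusted p = 0.142, limma; 0.18, adjusted p = 0.25, edgeR). In CSS it was 3.03-fold lower with JQ1, at 0.282, 0.480 and 0.520 FPKM against 1.53, 1.23 and 1.12 (log2 difference -0.69, SE 0.09, limma adjusted p = 0.000172). On top of enzalutamide it was 1.96-fold lower (-0.49, adjusted p = 0.000749, limma). In both tests BCL2 passed the filter, at least 1 FPKM in 3 samples, only through the samples without JQ1. Every sample with JQ1 was below 1 FPKM, and BCL2 was not tested when a sample without JQ1 was left out. DHT also lowered BCL2, to 0.558, 1.08 and 0.817 FPKM (-0.34, adjusted p = 0.0207, limma), a call that was lost without DHT replicate 1 or vehicle replicate 1 (up to 0.0675). With DHT and JQ1 it was at 0.550, 0.379 and 0.408 FPKM, below the filter for a test against DHT alone. In CSS its counts never exceeded 12 reads and did not pass the filter of the count test, so these values rest on FPKM.

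Both effectors were higher in MR49F than in V16D, and enzalutamide changed neither past the threshold in FS or CSS. BAX (chr19:49458072-49465055) was at 17.5, 19.2 and 19.4 FPKM in V16D and 23.4, 25.8 and 26.6 in MR49F, both untreated in FS. Every MR49F sample was higher (log2 difference 0.41, SE 0.07, limma adjusted p = 0.00203; log2 fold change 0.41, SE 0.08, edgeR adjusted p = 0.000554). Enzalutamide did not change it past the threshold in V16D (-0.03, adjusted p = 0.745, limma), in MR49F in FS (0.05, adjusted p = 0.577) or in CSS (0.09, adjusted p = 0.364), and none of the 3 JQ1 comparisons called it on either measure, although JQ1 on enzalutamide did on counts without enzalutamide replicate 3 (0.77, adjusted p = 0.0308, edgeR). With DHT it was at 21.5, 18.0 and 18.6 FPKM against 20.8, 24.8 and 21.4 with vehicle, overlapping and not past the threshold (-0.20, adjusted p = 0.0676, limma). On FPKM it was lower with DHT than with enzalutamide, where it was at 22.3, 25.4 and 23.9 (-0.29, adjusted p = 0.0111, limma). The counts did not call that difference (-0.27, adjusted p = 0.587, edgeR).

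BAK1 (chr6:33540324-33548070) showed the largest difference between the untreated lines among the members. It was at 3.87, 4.70 and 5.74 FPKM in V16D and 7.97, 9.18 and 9.50 in MR49F, 1.86-fold higher with no overlap (log2 difference 0.79, SE 0.13, limma adjusted p = 0.00196; log2 fold change 0.90, SE 0.12, edgeR adjusted p = 3.4e-05). Enzalutamide moved it in neither line past the threshold (0.08, adjusted p = 0.634 in V16D and -0.02, adjusted p = 0.908 in MR49F, limma). In CSS DHT lowered it from 8.69, 7.48 and 6.90 to 5.80, 5.56 and 6.21 FPKM (-0.34, adjusted p = 0.00463, limma), and with JQ1 added it was at 6.81, 7.34 and 7.72 (0.27, adjusted p = 0.00254, limma). JQ1 without DHT left it at 7.31, 6.92 and 6.95 (-0.10, adjusted p = 0.233, limma), and the effect of JQ1 differed with and without DHT (0.38, adjusted p = 0.00871, limma interaction). The counts called none of these CSS changes (-0.06, adjusted p = 0.89 for DHT, 0.28, adjusted p = 0.362 for JQ1 on DHT and 0.04, adjusted p = 0.964 for the interaction, edgeR), with 12 to 40 reads per sample and 91 exonic bases shared with GGNBP1 on the other strand.

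BMF (chr15:40380091-40401093), a BH3-only protein tied to the cytoskeleton that binds the guardians, ranged most widely over the conditions, rising with enzalutamide in FS and falling with it, on FPKM, in CSS. In V16D in FS it was at 1.39, 1.48 and 1.02 FPKM without and 2.20, 2.18 and 2.06 with enzalutamide, and in MR49F at 1.59, 1.78 and 1.64 without and 2.91, 3.26 and 2.91 with it. In both lines all treated samples lay above all controls, 1.66-fold (log2 fold change 0.69, SE 0.10, edgeR adjusted p = 1.12e-11; log2 difference 0.46, SE 0.08, limma adjusted p = 0.00716) and 1.81-fold (log2 fold change 0.84, SE 0.09, edgeR adjusted p = 0.000197; log2 difference 0.59, SE 0.05, limma adjusted p = 0.00506). The increase was not shown to differ between the lines (0.13, adjusted p = 0.679, edgeR interaction). Untreated MR49F had more BMF than V16D on counts (0.36, adjusted p = 0.03, edgeR), which was lost without MR49F vehicle replicate 2 or V16D vehicle replicate 3 (up to 0.128), and FPKM did not call it (0.22, adjusted p = 0.0573, limma).

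In CSS BMF began higher and moved the other way. It was at 8.98, 9.68 and 8.92 FPKM with vehicle, 4.47, 4.57 and 4.26 with enzalutamide and 1.41, 1.39 and 1.39 with DHT. The 3 groups did not overlap, and BMF was 2.07-fold lower with enzalutamide (log2 difference -0.91, SE 0.05, limma adjusted p = 8.6e-06) and 6.60-fold lower with DHT (log2 difference -2.09, SE 0.04, limma adjusted p = 1.02e-08), lower with DHT than with enzalutamide (-1.18, adjusted p = 2.18e-07, limma). On counts, which were 52, 41 and 30 reads with vehicle, 49, 27 and 9 with enzalutamide and 5, 11 and 9 with DHT, the fall with DHT passed (log2 fold change -2.16, SE 0.29, edgeR adjusted p = 1.35e-06). That with enzalutamide did not (-0.54, adjusted p = 0.275, edgeR), but it did without enzalutamide replicate 1 (-1.03, adjusted p = 0.0299). The difference between DHT and enzalutamide passed (-1.63, adjusted p = 0.00556, edgeR) and was lost without DHT replicate 1 or enzalutamide replicate 1 (up to 0.0577). The response of MR49F to enzalutamide differed between CSS and FS on counts (-1.33, adjusted p = 0.00209, edgeR interaction, 11.4% of all genes called) and on FPKM (-1.50, adjusted p = 1.64e-07, limma, 34%). Serum and the experiment cannot be told apart in that test.

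JQ1 moved BMF upward in each setting on FPKM. It was at 10.8, 10.4 and 10.2 FPKM with JQ1 alone (0.17, adjusted p = 0.00996 against vehicle, limma), 6.58, 8.05 and 7.54 with enzalutamide and JQ1 (0.62, adjusted p = 6.09e-05 against enzalutamide) and 2.06, 2.11 and 2.24 with DHT and JQ1 (0.39, adjusted p = 4.72e-05 against DHT). None of these pairs overlapped. The rise was larger with enzalutamide present than without it (0.45, adjusted p = 0.00403, limma interaction, 18.5% of all genes called) and larger with DHT (0.22, adjusted p = 0.00721, limma interaction), which the counts did not call (-0.12, adjusted p = 0.903, edgeR). The counts called no member in the enzalutamide by JQ1 test (edgeR, 2 of 7 at an unadjusted p under 0.05, 0 with DESeq2; 0.895% of all genes) and no JQ1 effect on BMF (0.40, adjusted p = 0.0635 for JQ1 alone, 0.52, adjusted p = 0.115 on enzalutamide and 0.28, adjusted p = 0.547 on DHT, edgeR). They did call it for JQ1 alone without JQ1 replicate 3 (0.48, adjusted p = 0.0458) and for JQ1 on enzalutamide without enzalutamide replicate 1 (1.01, adjusted p = 0.00292). With DHT and JQ1 together BMF averaged 2.13 FPKM, below every sample of vehicle or enzalutamide alone.

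**Figure D3:**
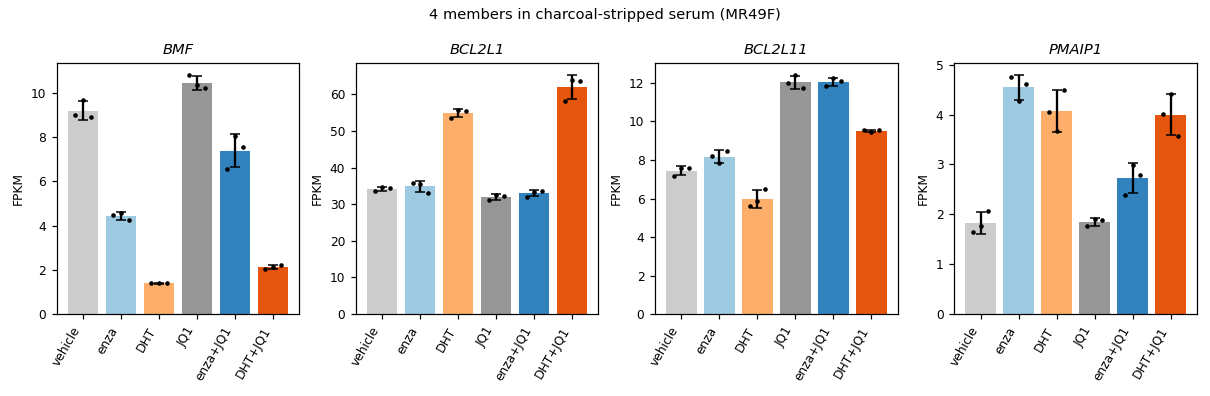
FPKM (y axis, linear, from 0) of BMF, BCL2L1, BCL2L11 and PMAIP1 in MR49F in charcoal-stripped serum, with bars for the mean of 3 samples, error bars for the SD and points for each sample. BMF is lowest and BCL2L1 highest in the groups given DHT, BCL2L11 is highest in the groups given JQ1 without DHT, and PMAIP1 is lowest with vehicle or JQ1 alone.

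PMAIP1 (chr18:57567228-57571537), a BH3-only protein that binds MCL1, rose on FPKM with both enzalutamide and DHT in CSS. It was at 1.64, 1.77 and 2.06 FPKM with vehicle, 4.75, 4.27 and 4.62 with enzalutamide and 4.05, 3.67 and 4.50 with DHT. Both treated groups lay wholly above vehicle, 2.49-fold (log2 difference 0.98, SE 0.06, limma adjusted p = 2.22e-05) and 2.23-fold (log2 difference 0.84, SE 0.08, limma adjusted p = 2.3e-05), and overlapped each other (-0.13, adjusted p = 0.132, limma). JQ1 alone left it at 1.76, 1.91 and 1.88 FPKM (0.02, adjusted p = 0.82, limma). With enzalutamide and JQ1 it was at 2.39, 2.98 and 2.80, below every sample with enzalutamide alone (-0.58, adjusted p = 9.06e-05, limma), and the effect of JQ1 differed with and without enzalutamide (-0.59, adjusted p = 0.00168, limma interaction). With DHT and JQ1 it was at 4.02, 4.40 and 3.58, overlapping DHT alone (-0.02, adjusted p = 0.821, limma). In CSS its counts lay between 1 and 12 reads per sample, too few to pass the filter of the count test. Without that filter edgeR tested all 10 members with enzalutamide and called 0 (1 at an unadjusted p under 0.05). Mean CPM was 2.54 with vehicle, 4.35 with enzalutamide, 4.25 with DHT and 4.27 with enzalutamide and JQ1. In CPM both treated groups overlapped vehicle, and enzalutamide with JQ1 overlapped enzalutamide alone.

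In FS the lines differed in how PMAIP1 responded. It went from 4.34, 4.41 and 4.64 to 3.42, 3.95 and 3.52 FPKM in V16D and from 4.62, 4.85 and 4.96 to 5.62, 5.74 and 5.36 in MR49F with enzalutamide. In V16D the treated samples were all lower (log2 difference -0.24, SE 0.05, limma adjusted p = 0.016; log2 fold change -0.32, SE 0.10, edgeR adjusted p = 0.0037), and in MR49F all were higher, without passing the threshold (0.18, adjusted p = 0.0843, limma; 0.17, adjusted p = 0.2, edgeR). The difference between the responses passed on both measures (0.42, adjusted p = 0.00417, limma; 0.48, adjusted p = 0.0103, edgeR interaction). On FPKM the V16D call was lost without enzalutamide replicate 3 (adjusted p = 0.0503). Within MR49F the response was larger in CSS than in FS on FPKM (0.80, adjusted p = 4.15e-05, limma interaction), and on counts the difference did not pass (0.74, SE 0.50, adjusted p = 0.422, edgeR).

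BIK (chr22:43506756-43525718), a BH3-only protein of the endoplasmic reticulum, rose with enzalutamide in MR49F in FS and fell, on FPKM, with DHT or JQ1 in CSS. In MR49F in FS it went from 2.31, 2.66 and 2.66 to 3.63, 4.47 and 3.90 FPKM, with no overlap (log2 difference 0.49, SE 0.08, limma adjusted p = 0.0261; log2 fold change 0.60, SE 0.15, edgeR adjusted p = 0.0322). This rested on few samples, as the count call was lost without any enzalutamide sample or vehicle replicate 2 (adjusted p up to 0.143), and the FPKM call without these or vehicle replicate 3 (up to 0.121). In V16D it was at 2.76, 2.99 and 2.77 without and 2.22, 3.03 and 2.29 with the drug, overlapping (-0.14, adjusted p = 0.3, limma; -0.22, adjusted p = 0.345, edgeR). The responses of the lines differed (0.63, adjusted p = 0.0146, limma; 0.82, adjusted p = 0.0292, edgeR interaction), on counts not without MR49F enzalutamide replicate 2, V16D enzalutamide replicate 1 or 3, or any V16D vehicle sample (up to 0.0936).

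In CSS BIK was highest with vehicle, at 6.47, 8.17 and 5.43 FPKM. It was at 5.11, 4.86 and 5.35 with enzalutamide, not past the threshold (-0.32, adjusted p = 0.0562, limma), at 3.57, 3.40 and 2.64 with DHT (-0.86, adjusted p = 0.000536) and at 3.80, 3.78 and 2.69 with JQ1 (-0.79, adjusted p = 0.00153). The DHT and JQ1 groups lay wholly below vehicle, 2.09-fold and 1.95-fold lower. JQ1 lowered it on enzalutamide too, to 3.78, 3.34 and 2.26 (-0.58, adjusted p = 0.00307, limma), and on DHT, to 2.49, 2.24 and 1.99, the lowest level of BIK in the series (-0.37, adjusted p = 0.00704, limma). Its response to enzalutamide differed between the sera on FPKM (-0.81, adjusted p = 0.00282, limma interaction) and did not pass on counts (-0.55, SE 0.47, adjusted p = 0.563, edgeR). With 2 to 9 reads per sample in CSS, BIK did not pass the filter of the count test in the comparisons within CSS. Its mean CPM was 2.46 with DHT against 3.83 with vehicle, and 1.32 with DHT and JQ1 against 2.46, neither overlapping. With JQ1 it was 3.48 against 3.83, and with JQ1 on enzalutamide 3.99 against 3.90, both overlapping.

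BCL2L11 (chr2:111876955-111926021), whose product BIM binds all guardians and can activate BAX, rose with JQ1 in every setting. It was at 7.18, 7.58 and 7.61 FPKM with vehicle and 11.98, 12.4 and 11.7 with JQ1 in CSS. The groups did not overlap, and the 1.62-fold rise passed on both measures (log2 difference 0.63, SE 0.04, limma adjusted p = 4.97e-06; log2 fold change 1.04, SE 0.17, edgeR adjusted p = 1.85e-06). On top of enzalutamide JQ1 moved it from 8.22, 7.83 and 8.47 to 11.8, 12.3 and 12.1 FPKM, and on top of DHT from 5.60, 5.86 and 6.47 to 9.54, 9.47 and 9.57. These rises passed on FPKM (0.51, adjusted p = 1.75e-05 and 0.60, adjusted p = 1.83e-05, limma) and on counts (0.73, adjusted p = 0.00561 and 0.90, adjusted p = 0.000141, edgeR), the count call on enzalutamide being lost without enzalutamide with JQ1 replicate 1 (adjusted p = 0.053). The effect of JQ1 on BCL2L11 was not shown to depend on DHT (-0.03, adjusted p = 0.726, limma interaction) or on enzalutamide (-0.12, adjusted p = 0.171). DHT alone lowered it, 1.25-fold, on FPKM (-0.28, adjusted p = 0.00227, limma), and the DHT groups lay below their counterparts without DHT both with and without JQ1. MCL1 and BCL2L11, a guardian and an activator, were the 2 members that JQ1 raised on both measures in all 3 settings.

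In FS BCL2L11 was at 9.29, 9.66 and 9.05 FPKM in untreated V16D and 6.57, 7.73 and 7.82 in untreated MR49F, lower in every MR49F sample (log2 difference -0.31, SE 0.07, limma adjusted p = 0.00869; log2 fold change -0.42, SE 0.05, edgeR adjusted p = 2.52e-05). With enzalutamide it was at 9.01, 8.46 and 9.39 in V16D, overlapping the controls (-0.05, adjusted p = 0.404, limma). The small fall on V16D counts passed (-0.12, adjusted p = 0.0186, edgeR) but not without enzalutamide replicate 2 or vehicle replicate 2 (up to 0.176). In MR49F it did not pass (0.01, adjusted p = 0.92, edgeR).

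BBC3 (chr19:47724079-47736023), the p53 target PUMA, stayed between 1.16 and 2.45 FPKM over the condition means. In FS it was called in no comparison on either measure, with 1.49, 1.77 and 1.17 FPKM in untreated and 2.12, 1.98 and 1.69 in treated V16D (0.25, adjusted p = 0.114, limma; 0.35, adjusted p = 0.0748, edgeR), though counts called it there without vehicle replicate 2 (0.55, adjusted p = 0.0168). In CSS DHT lowered it from 2.25, 2.76 and 2.27 to 1.53, 1.24 and 2.12 FPKM (-0.39, adjusted p = 0.0168, limma), a call lost without vehicle replicate 2 (adjusted p = 0.0577). With DHT and JQ1 it was at 1.15, 1.15 and 1.18 (-0.27, adjusted p = 0.047 against DHT, limma), where 5 of the 6 samples were each needed for the call (all but DHT replicate 2), with adjusted p up to 0.0927. 

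**Figure D4:**
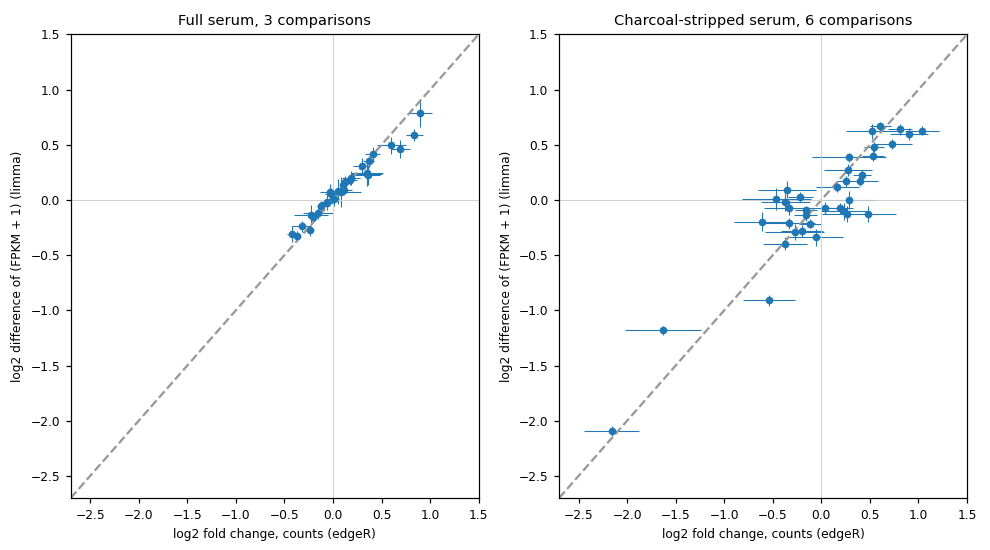
Log2 fold change on counts (x axis, edgeR) against log2 difference of (FPKM + 1) (y axis, limma) for members tested on both, with standard errors as bars and equality as a dashed line, in 3 full-serum comparisons (left, 30 values) and 6 in charcoal-stripped serum (right, 37 values). The median standard error on counts is 0.08 on the left and 0.23 on the right, and 2 of 30 and 9 of 37 values have opposite signs on the 2 measures.

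Summed by role, the guardians came to 72.4 ± 1.49 FPKM in untreated V16D and 73.6 ± 0.419 in untreated MR49F in FS (mean ± SD, n = 3), and the effectors to 23.5 ± 1.95 and 34.1 ± 2.47. In CSS the 5 BH3-only genes together were at 27.6 ± 2.06 FPKM with vehicle, 24.5 ± 0.841 with enzalutamide and 16.3 ± 0.796 with DHT, while the 3 guardians were at 80.3 ± 1.84, 76.9 ± 0.972 and 94.3 ± 1.28. The ratio of the BH3-only sum to the guardian sum was 0.339, 0.368 and 0.323 in the vehicle samples and 0.174, 0.165 and 0.179 in the DHT samples, which do not overlap. With JQ1 added to DHT it was 0.173, 0.162 and 0.156, overlapping DHT alone. With DHT the largest moves within these sums were BMF, from 9.20 to 1.39 FPKM, and BCL2L1, from 34.2 to 55.0. BCL2L11, BBC3 and BIK also fell, whereas PMAIP1 rose and the guardians MCL1 and BCL2 fell, against their sums. The sums are a description of transcript levels and carry no test.

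**Figure D5:**
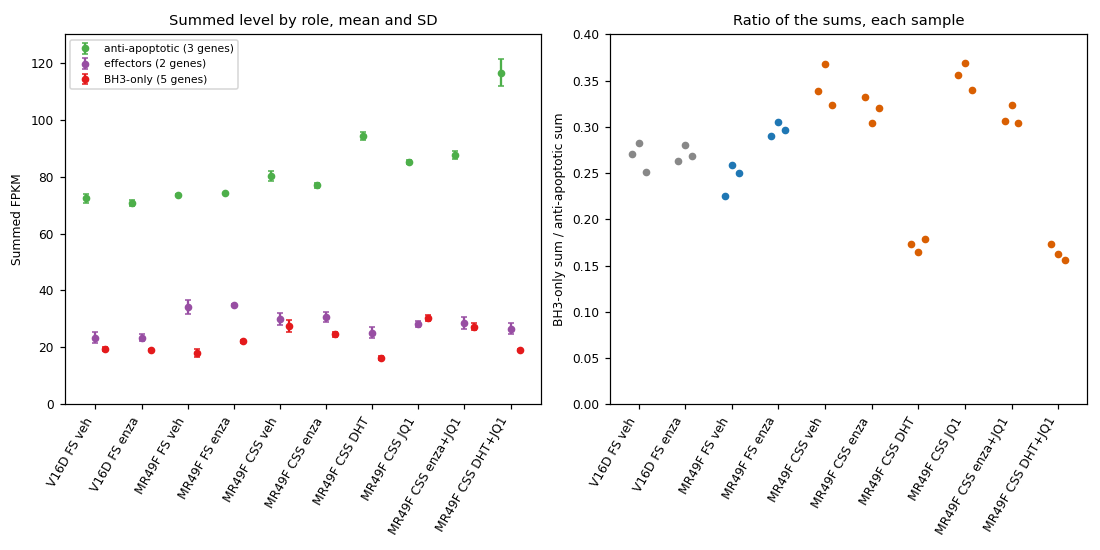
Left, summed FPKM of the 3 guardians (green), 2 effectors (purple) and 5 BH3-only genes (red) by condition, mean and SD of 3 samples. Right, the BH3-only sum divided by the guardian sum in each sample, which lies between 0.156 and 0.179 in the 6 samples given DHT and at 0.225 or above in the other 24.

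The deposited transcripts showed which isoforms carried these levels. BCL2L1 was almost wholly the long anti-apoptotic form (NM_138578), 92.8% to 97.9% of the gene's FPKM over the condition means, and the short pro-apoptotic BCL-XS transcript (NM_001191) never averaged above 7.23%. The rise with DHT lay in the long form, at 32.4 FPKM with vehicle and 52.6 with DHT. MCL1 was mostly its long form (NM_021960), with the short pro-apoptotic form (NM_182763) at 0.561% or less. The remaining MCL1 transcript (NM_001197320) held 26.6% ± 9.49 and 28.7% ± 4.31 of the gene in V16D without and with enzalutamide (SD, n = 3), against 3.25% ± 4.35 and 4.21% ± 1.74 in MR49F in FS. The lowest V16D sample was at 16.8% and the highest MR49F sample in FS at 8.20%, so the lines did not overlap there, whereas MR49F in CSS averaged 15.4% to 19.7%. BMF was mainly NM_033503, 58.9% to 96.3%. Shares of overlapping transcripts are model estimates, and no test was run on them.

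The rest of the pathway was read from 3 further lists. Of 13 other family genes, 8 passed the FPKM filter over the DHT and vehicle samples in CSS. With DHT 1 of the 8 rose and 5 fell (71.6% of all genes were called in that comparison). BOK, a BAX-like effector, fell with DHT from 6.96 ± 0.581 to 4.14 ± 0.149 FPKM (log2 difference -0.63, SE 0.06, limma adjusted p = 3.34e-05) and with JQ1 to 1.66 ± 0.107 (-1.58, adjusted p = 4.16e-07). BNIP3L, a mitophagy receptor, rose with JQ1 on DHT from 31.1 ± 0.826 to 69.2 ± 0.944 FPKM (1.13, adjusted p = 1.68e-07, limma). With JQ1 alone 3 of these 8 rose and 4 fell, where 74.7% of all genes were called. In FS enzalutamide raised 3 of 8 and lowered 0 in V16D (29.7% of all genes called on FPKM) and raised 1 of 8, BOK, in MR49F (4.53%). Untreated MR49F had 6 of the 8 higher and 2 lower than V16D on FPKM (62.7%).

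Of 22 caspase pathway genes, 20 were tested on FPKM. Enzalutamide in CSS raised 4 and lowered 2 (38.4% of all genes called), DHT raised 5 and lowered 6 (71.6%), and JQ1 raised 6 and lowered 8 (74.7%). JQ1 on enzalutamide raised 7 and lowered 12 (75.4%), and JQ1 on DHT raised 6 and lowered 10 (78.8%). On counts edgeR called 0 of 20 with enzalutamide in CSS (2 at an unadjusted p under 0.05, 0 with DESeq2; 7.26% of all genes), 7 of 19 with DHT (37.5%) and 7 of 20 with JQ1 (46.6%). DFFB, the caspase-activated DNase, fell with JQ1 from 3.95 ± 0.0781 to 1.39 ± 0.252 FPKM (-1.05, adjusted p = 7.02e-06, limma). In untreated cells in FS, 8 of the 20 were higher and 3 lower in MR49F than in V16D, where 62.7% of all genes were called, CASP6 at 5.30 ± 0.118 against 3.42 ± 0.571 FPKM (0.52, adjusted p = 0.00292, limma). On counts 12 of 22 were higher and 6 lower there (63.7% of all genes called, edgeR).

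Of 10 regulators of the family, FOXO3, a forkhead factor known to act on BCL2L11, rose with JQ1 from 17.6 ± 0.0849 to 29.1 ± 0.470 FPKM (log2 difference 0.69, SE 0.03, limma adjusted p = 1.36e-06) and on DHT from 23.3 ± 0.734 to 85.4 ± 3.20 (1.83, SE 0.05, adjusted p = 4.61e-08). By mean FPKM, FOXO3 was higher with DHT than with vehicle, whereas BCL2L11 was lower. No link between a regulator and a member was tested. ATF4, a stress factor known to act on PMAIP1, rose in CSS from 145 ± 4.65 FPKM with vehicle to 221 ± 3.82 with enzalutamide (0.60, adjusted p = 3.78e-05, limma) and 206 ± 10.4 with DHT (0.50, adjusted p = 4.77e-05). E2F1, a cell cycle factor, rose with DHT from 8.16 ± 0.297 to 18.2 ± 0.237 FPKM (1.07, adjusted p = 2.32e-07, limma). USP9X, a deubiquitinase known to act on MCL1, was at 15.9 ± 1.01 FPKM in untreated MR49F and 7.56 ± 0.113 in V16D (0.98, adjusted p = 2.83e-05, limma). In FS enzalutamide raised 2 and lowered 2 of the 10 in V16D on FPKM (29.7% of all genes called). In CSS it raised 4 and lowered 2 of the 9 tested (38.4%), DHT raised 3 and lowered 3 of 9 (71.6%), and JQ1 raised 5 and lowered 4 of 10 (74.7%). None of the 3 lists was tested as a set against the other genes, so none is called different from them.

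Over the 10 condition means, the genes most like each member on log2(FPKM + 1), among 10727 with at least 1 FPKM in every condition, were PACSIN2 for BCL2L1 (Pearson r = 0.986), PPP1R21 for MCL1 (0.985), WDR52 for BCL2L11 (0.981), TRMT61B for BCL2 (0.975, among 10728), PLK1S1 for BMF (0.971), GAA for BAX (0.970), ZNF740 for BBC3 (0.967), SH3GLB1 for BAK1 (0.967), ERO1LB for BIK (0.966) and IFT57 for PMAIP1 (0.948). The points share lines, sera and libraries, so these values only describe likeness.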

How the data were processed

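RNA was measured by stranded poly(A) sequencing (single reads of 50 bases) in 30 samples, 3 in each of 10 conditions, grouped by their labels. The authors aligned reads to hg19 with TopHat2 2.0.9. They deposited whole-number read counts per RefSeq gene from HTSeq, and FPKM per transcript from Cufflinks 2.1.1. How strand was treated in counting is not given in the sources used here. Transcript FPKM were summed to genes here. Rows naming no gene were left out, so that genes held 73.0% to 77.8% of the uniquely aligned reads in FS and 5.13% to 7.66% in CSS.

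Counts were tested with edgeR 4.0.16 (quasi-likelihood test, TMM, filterByExpr at 10 counts per sample and 15 in total) in R 4.3.3, on the compared groups only, with Benjamini-Hochberg adjustment over all genes tested and calls at 0.05. Log2(FPKM + 1) was tested with limma 3.58.1 on genes with at least 1 FPKM in 3 samples. In CSS, where 982130 to 1813262 reads per sample lay on genes, FPKM leads the text. There were 13 comparisons, 4 of them interactions. Both tests were run on simulated data first. Alternatives were DESeq2 1.42.0, other filters, scalings and pseudocounts, an equal-variance two-group test, a replicate block and leaving out each sample. The members and the 3 further lists were chosen with earlier results of these data known. All members that passed the filters were tested in every comparison. From each further list the genes named are among the 2 per comparison with the largest called change, no overlap between groups and at least 5 CPM in the higher group. For each member the gene with the highest Pearson r over condition means is named. Positions are from GENCODE 44 on GRCh37. Some genes of the lists are not reported here.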

Additional observations from a re-analysis of the deposited data

Results flagged for a closer look

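The results below are members whose response to one treatment differed between lines, sera or co-treatments by a test of the difference itself, given as the log2 difference of the 2 responses. Between the lines, the response to enzalutamide in full serum was higher in MR49F than in V16D for PMAIP1 (0.483) and BIK (0.819) on counts (edgeR). These were 2 of 10 members, where 6.95% of all genes were called. The BIK difference was lost in 6 of 12 fits that left out 1 sample (edgeR adjusted p up to 0.0936), and DESeq2 called neither gene.

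The response to JQ1 was higher with DHT present than without it for BCL2L1 (0.413 on counts, edgeR). On counts this was lost whichever of the 12 samples was left out (edgeR adjusted p up to 0.125). On FPKM (limma) it was higher for MCL1 (0.25), BAK1 (0.377) and BMF (0.22). None of these passed on counts (adjusted p = 0.653, 0.964 and 0.903, edgeR), where BMF had the opposite sign (-0.12). For DHT by JQ1, 4 of 10 members were called on FPKM (47.7% of all genes) and 1 of 7 on counts (12.3%). With enzalutamide present the response to JQ1 was lower for PMAIP1 (-0.592) and higher for BMF (0.455) on FPKM, 2 of 10 members (18.5% of all genes). Counts called 0 of 7 there (0.895% of all genes), with BMF at 0.12 (adjusted p = 0.925, edgeR).

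The response of MR49F to enzalutamide was higher in CSS than in FS for BCL2L1 (0.183) and PMAIP1 (0.798), and lower for MCL1 (-0.306) and BIK (-0.812) on FPKM and for BMF (-1.33) on counts. The BCL2L1 difference was lost in 10 of 12 fits that left out 1 sample (adjusted p up to 0.0842, limma). On counts BCL2L1, PMAIP1, MCL1 and BIK did not pass there (adjusted p = 0.919, 0.422, 0.229 and 0.563, edgeR). Serum and experiment cannot be told apart in these 5 values. Of 10 members tested there, 5 were called on FPKM (34% of all genes) and 1 on counts (11.4%).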

How the results depend on the processing

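No member's call changed direction under the alternatives run for it. The count test was not among those for the FPKM calls. BMF in DHT by JQ1 was called at 0.22 on FPKM and was -0.12 on counts. On counts 457 of the single values kept their side of the threshold and 70 did not, and on FPKM 587 and 43. In V16D with enzalutamide (6 members called), DESeq2 called 3 and the equal-variance two-group test 2. In MR49F in FS (3), the two-group test called 1, and leaving out a sample gave 1 to 4. For the difference between the lines (2), DESeq2 called 0 and leaving out a sample gave 1 to 3. In CSS, FPKM with a pseudocount of 1, with 0.1 and without a filter called 2, 2 and 2 members with enzalutamide (0 on counts), 9, 9 and 7 with DHT (2), 8, 7 and 7 for DHT against enzalutamide (2), 5, 5 and 6 with JQ1 (2), 6, 6 and 6 with JQ1 on enzalutamide (2), 7, 6 and 6 with JQ1 on DHT (3), 4, 4 and 4 for DHT by JQ1 (1), 2, 2 and 2 for enzalutamide by JQ1 (0) and 5, 5 and 5 for serum by enzalutamide (1). A minimum of 10 counts in every sample gave 1 with DHT, 1 for DHT against enzalutamide and 0 for serum by enzalutamide, with fewer genes tested. The two-group test gave 0 for DHT against enzalutamide and for JQ1 on enzalutamide. For DHT by JQ1, no filter and DESeq2 each gave 0. Leaving out a sample gave 0 to 1 with enzalutamide in CSS, 1 to 2 for DHT against enzalutamide, 1 to 3 for JQ1 on enzalutamide and 0 for DHT by JQ1. On FPKM in MR49F in FS (2), leaving out a sample gave 1 to 2. Beyond fewer genes or samples, the cause of these changes was not tested.

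Replicate numbers gave no clear pairing of the samples (same-number correlations of -0.158 to 0.171 on counts and -0.212 to 0.163 on FPKM). With 3 samples per group these correlations cannot show that the samples were unpaired. With the replicate number as a block, counts called 6 members in V16D, 3 in MR49F in FS and 3 with JQ1 on enzalutamide, and FPKM called 4, 1 and 6. The block on FPKM, leaving out samples on FPKM and raw library sizes for the member counts were chosen after seeing the data. Without replicate 1 of MR49F vehicle in FS, 4 members were called on counts and 2 on FPKM in MR49F with enzalutamide. Few reads on genes limit the CSS counts, where BCL2, PMAIP1 and BIK had 12 reads or fewer per sample.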
